A study of Mus musculus with 6 samples.

Results

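The comparison described here set the lungs of wild-type (WT) mice against those of mice lacking the IL-4 receptor (IL4R KO), after both had been given IL-13. It rests on 4 of the 6 arrays of the study, 2 per genotype, chosen by the genotype in their labels, and the remaining 2 arrays entered the fit only for the estimate of spread. WT mice were IL4R +/+ without a transgene and IL4R KO mice were IL4R -/-, and the third group, IL4R KO + SMP8-IL4R, was IL4R -/- with a transgene (+/-) for the receptor driven by the SMP8 promoter, described in the design text as specific to smooth muscle. All mice were adult and on the BALB/c background, and all received 2 to 3 µg of IL-13 into the trachea once a day over 7 days, with whole lungs collected 24 hours after the final dose. Each array held RNA pooled from 4 mice, so the p-values given here measure the spread between pools and not between single mice. No group was left without IL-13, and every difference is therefore one of genotype during IL-13 exposure.

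IL-13 and IL-4 are cytokines of type 2 immunity, made by T helper cells and innate lymphoid cells. They share the receptor chain IL-4Rα, which pairs with IL-13Rα1 or with the common gamma chain and activates the transcription factor STAT6. In the airway this pathway is known for turning epithelial cells toward mucus secretion, for alternative activation of macrophages, and for effects on smooth muscle and fibroblasts. The question the comparison addresses is which transcripts of the whole lung differed with the receptor, with attention here to pathways beyond mucus, macrophage and chemokine genes.

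The arrays had medians of 7.08 to 7.11 on the log2 scale, and markers of lung cells were high in every one of them. Sftpc, the surfactant protein of alveolar type 2 cells, lay between 14.73 and 14.76, and Ager, of alveolar type 1 cells, between 14.29 and 14.43. The receptor gene itself, Il4ra, read 9.64 and 9.81 in the WT pools and 9.35 and 9.55 in the IL4R KO pools, and because the position of its probe sets relative to the deleted part is not known here, it does not check the labels. The pools of a group differed in 2 respects that are described at the end. Transcripts of liver were high in IL4R KO pool 1 and WT pool 2, so that Alb, albumin, read 12.26 and 11.81 there and at most 5.93 elsewhere. Y-linked transcripts stood low in 1 array, IL4R KO pool 2, with Eif2s3y at 4.27 there and at 8.49 or more elsewhere.

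Of 11860 genes tested with limma, 557 passed (4.7%) at a Benjamini-Hochberg adjusted p under 0.05, of which 329 were higher in WT (2.77%) and 228 lower (1.92%). A difference over 2-fold, which is 1 on the log2 scale, was seen for 149 of them (1.26%), 116 higher (0.978%) and 33 lower (0.278%). The median difference over all genes tested was -0.02, with quartiles of -0.13 and 0.08. The WT and IL4R KO pools did not overlap for 51.6% of all genes tested, so a gap between the pools of a gene was not by itself unusual. Leaving out a WT pool removed most calls, with 88 higher and 22 lower left without pool 1, and 93 and 27 without pool 2. Leaving out IL4R KO pool 1 gave 563 higher and 949 lower, and leaving out IL4R KO pool 2 gave 663 and 533. In all 4 of these fits 84 of the higher and 16 of the lower genes still passed. The difference of none of the 557 genes moved by over 1.5 times when any 1 pool was left out. Passing favours genes whose pools lie close together, so this was largely set by the choice of genes. Hereafter, a gene said to pass with every pool left out in turn belongs to those 100, and list counts without a pool are given where they differ by over 1.5 times from those on all pools. The number passing over all genes rose without an IL4R KO pool and dropped without a WT pool. A list count from such a fit therefore does not by itself show a change particular to that list. In whole lung, fewer cells of a type and less RNA per cell cannot be told apart.

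**Figure D1:**
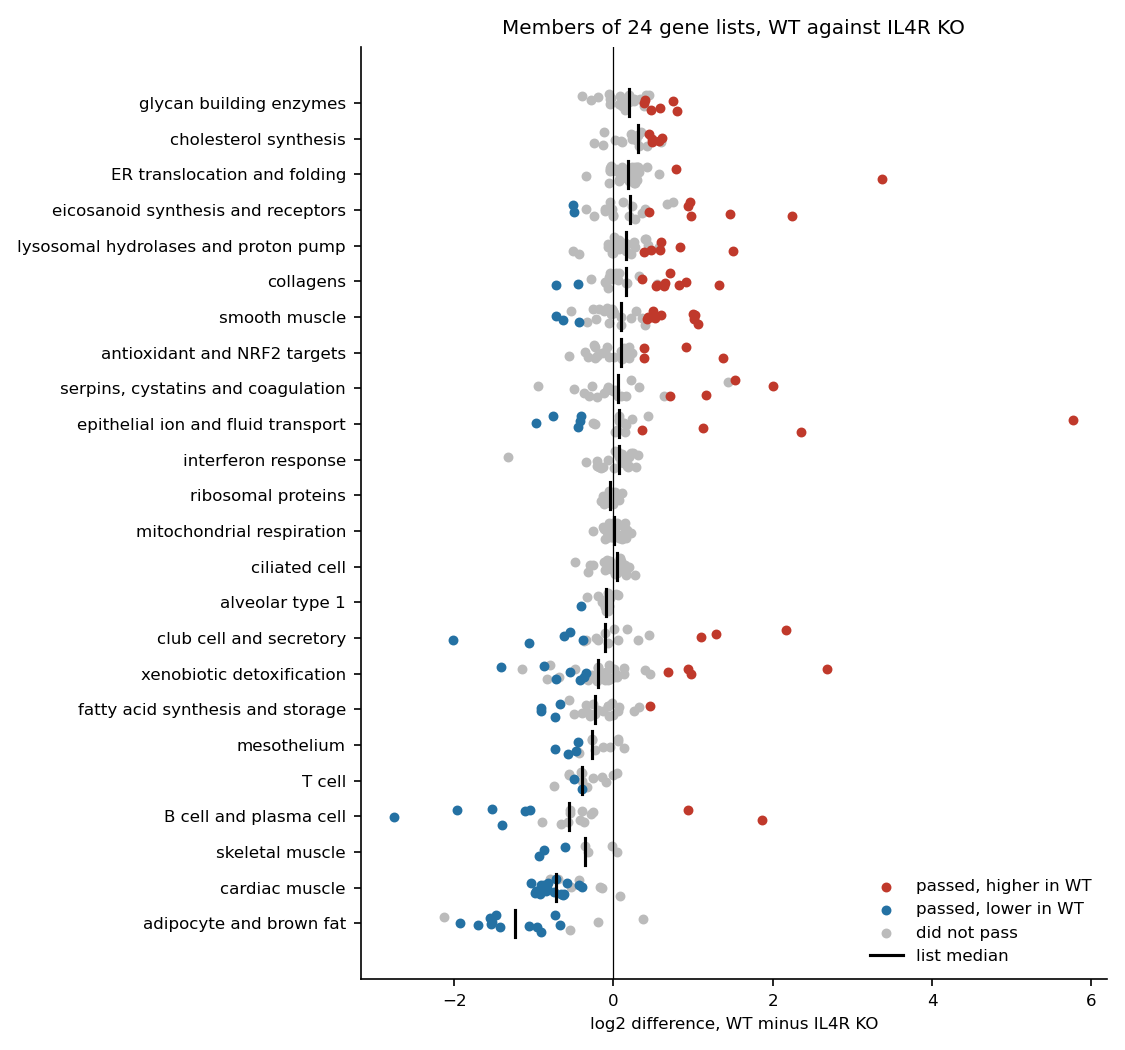
Each point is 1 gene, placed by its log2 difference (WT minus IL4R KO, horizontal axis) in the row of its gene list, with members passing limma at an adjusted p under 0.05 in red (higher in WT) or blue (lower in WT), the others in grey, and the list median as a black bar. Among these 24 lists, medians run from 0.31 for cholesterol synthesis to -1.24 for fat genes, and the ribosomal and mitochondrial lists hold no coloured point.

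The 30 largest rises whose pools did not overlap ran from 9.38 for Clca1 to 2.26 for Retnla. Of the 30, Cxcl1 (3.24 and 3.32), Ch25h (2.21 and 2.39) and Retnla (2.26 and 2.25) did not pass without WT pools 1 and 2 in turn, and the others passed with every pool left out. Many belong to the mucus, macrophage and chemokine programmes: Clca1, Chil4, Rnase2a, Retnlb, Mmp12, Itln1, Ccl11, Cxcl5, Muc5ac, Cxcl1, Chia1, Ccl17, Fcgbp, Cd209e, Chil3 and Retnla. The others were of several kinds. Fbp1, the enzyme fructose-1,6-bisphosphatase of gluconeogenesis, read 11.95 and 12.05 in the WT pools and 9.14 and 8.18 in the IL4R KO pools, and rose by 3.34 on the log2 scale (SE 0.29, adjusted p = 0.00357). Corin, a membrane serine protease that activates natriuretic peptides in the heart, read 10.33 and 10.05 in the WT pools and 7.56 and 7.43 in the IL4R KO pools, a rise of 2.70 (SE 0.15, adjusted p = 0.000987). Both genes read lower in the transgenic pools than in the IL4R KO pools. The transgenic values were 7.89 and 7.94 for Fbp1 and 6.70 and 7.06 for Corin. For Fbp1 the higher IL4R KO value, 9.14, was that of pool 1, where liver transcripts were high, and their part in it was not tested.

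Scin, which encodes the actin-severing protein scinderin, read 10.68 and 10.62 in the WT pools and 5.27 and 5.40 in the IL4R KO pools, a difference of 5.32 (SE 0.07, adjusted p = 2.36e-06). Fer1l6, a member of the ferlin family of membrane proteins, read 9.57 and 9.39 in the WT pools and 4.80 and 4.72 in the IL4R KO pools, a difference of 4.72 (SE 0.09, adjusted p = 1.18e-05). Capn9, a calpain protease of the digestive tract, differed by 4.27 (SE 0.14, adjusted p = 0.000112). The pools of all 3 genes stood far apart, but their IL4R KO values lay near or below 5.30, the lower quartile of all values, where fold changes are uncertain. Ch25h, which makes 25-hydroxycholesterol, read 10.11 and 9.93 in the WT pools and 7.77 and 7.66 in the IL4R KO pools, a rise of 2.30 (SE 0.23, adjusted p = 0.00662). Panct2, a long noncoding RNA, rose by 2.43 (SE 0.13, adjusted p = 0.000981).

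Promoter windows of the largest rises are shown because STAT6, the transcription factor downstream of IL-4Rα, is known to bind a palindrome of TTC and GAA with 4 bases of any kind between them. The window was 250 bases before to 50 after the first listed start of a gene, from RefSeq (GRCm38.p6), and both strands were covered because the motif is its own reverse complement. Of the 30 largest rises 22 had a window, and 4 of these held the motif, which is in capitals. In the window of Ccl17, the shorter TTCNNNGAA is in capitals as well. The windows lie at chr8:124575861-124576160 on the plus strand for Capn9, chr8:94810203-94810502 on the plus strand for Ccl17, chr8:3854237-3854536 on the minus strand for Cd209e and chr16:48842359-48842658 on the plus strand for Retnla, and are printed in the direction of the gene.

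Capn9: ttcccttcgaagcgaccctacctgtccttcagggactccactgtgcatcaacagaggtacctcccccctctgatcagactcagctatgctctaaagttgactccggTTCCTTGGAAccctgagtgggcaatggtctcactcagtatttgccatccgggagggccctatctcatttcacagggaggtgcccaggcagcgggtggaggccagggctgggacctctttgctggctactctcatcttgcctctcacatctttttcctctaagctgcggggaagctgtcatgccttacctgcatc

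Ccl17: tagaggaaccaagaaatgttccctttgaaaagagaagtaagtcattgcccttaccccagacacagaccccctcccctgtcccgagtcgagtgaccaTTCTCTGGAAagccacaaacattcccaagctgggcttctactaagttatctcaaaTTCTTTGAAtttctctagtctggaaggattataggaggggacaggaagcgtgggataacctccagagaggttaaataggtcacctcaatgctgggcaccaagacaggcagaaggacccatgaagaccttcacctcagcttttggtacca

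Cd209e: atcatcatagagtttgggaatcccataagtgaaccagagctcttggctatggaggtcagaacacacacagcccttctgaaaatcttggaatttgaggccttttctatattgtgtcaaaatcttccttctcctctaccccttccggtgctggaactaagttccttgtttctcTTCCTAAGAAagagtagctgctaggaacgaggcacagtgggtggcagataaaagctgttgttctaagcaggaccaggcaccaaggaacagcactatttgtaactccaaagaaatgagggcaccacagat

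Retnla: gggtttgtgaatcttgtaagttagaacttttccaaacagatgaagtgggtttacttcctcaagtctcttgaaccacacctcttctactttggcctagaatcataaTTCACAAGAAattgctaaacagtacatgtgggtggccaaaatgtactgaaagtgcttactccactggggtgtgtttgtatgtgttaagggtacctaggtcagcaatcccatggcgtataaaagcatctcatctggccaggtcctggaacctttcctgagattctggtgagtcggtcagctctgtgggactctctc

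Counted from the start of the gene, the motif began at position -144 in Capn9, at -154 in Ccl17, at -79 in Cd209e and at -145 in Retnla. It stood in 497 of 9549 windows of all genes tested (5.2%), in 24 of 249 windows of genes higher in WT (9.64%), in 12 of 88 windows of those higher by over 2-fold (13.6%) and in 5 of 166 windows of genes lower in WT (3.01%). The motif with 3 middle bases, TTCNNNGAA, stood in 6.69% of all windows, 7.23% of those of higher genes, 11.4% of those higher by over 2-fold and 3.01% of those of lower genes. These shares are a description, and a match shows the letters and not a bound site. The genes with TTCNNNGAA among the 30 largest rises were Chil4, Ccl17, Panct2 and Chil3, with TTCTTAGAA in Chil4, Panct2 and Chil3.

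Genes of the secretory route showed a few clear rises within broader small differences. Of 40 tested genes of translocation into and folding in the endoplasmic reticulum, 2 rose and 34 had a difference above 0, with a median of 0.19 against -0.02 for all genes. Agr2, a disulfide isomerase needed for mucin folding, read 10.90 and 10.84 in the WT pools and 7.68 and 7.32 in the IL4R KO pools, a rise of 3.37 (SE 0.16, adjusted p = 0.000538), and its other probe set differed by 1.62. Creb3l1, a membrane-bound transcription factor of the secretory pathway, rose by 0.78 (SE 0.07, adjusted p = 0.00441) and did not pass without WT pool 1 (0.72). Among the 40 there were 9 higher and 0 lower with IL4R KO pool 1 left out, and 3 and 1 with IL4R KO pool 2 left out. Of 32 genes of vesicle coats and secretion, 3 rose, and none of them passed without WT pool 1 or without WT pool 2. These were Rab27b, a GTPase of secretory granules (0.80, SE 0.15), Kdelr3, which returns proteins to the endoplasmic reticulum (0.68, SE 0.08), and the membrane fusion protein Snap23 (0.34, SE 0.06). The vesicle list had 4 higher and 1 lower with IL4R KO pool 1 left out, and 5 and 0 with IL4R KO pool 2 left out.

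Enzymes that build glycans, which decorate mucins and other secreted proteins, rose in 6 of 27 cases with none falling, and the list median was 0.19. St3gal4, a sialyltransferase, read 10.13 and 10.16 in the WT pools and 9.14 and 9.55 in the IL4R KO pools, a rise of 0.80 (SE 0.14, adjusted p = 0.0332). The IL4R KO pools of St3gal4 stood apart from each other too. Galnt12, Galnt7 and Galnt4, which start O-glycan chains, rose by 0.75, 0.40 and 0.38. Gfpt1 and Uap1, enzymes that make the sugar donor UDP-GlcNAc, rose by 0.59 (SE 0.06, adjusted p = 0.00864) and 0.47 (SE 0.08, adjusted p = 0.0357). The probe sets of these 2 genes disagreed, with differences from 0.03 to 0.59 for Gfpt1 and from -0.09 to 0.53 for Uap1. None of the 27 passed without WT pool 1 or without WT pool 2, and the list had 5 higher and 1 lower with IL4R KO pool 1 left out, and 8 and 2 with IL4R KO pool 2 left out.

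Epithelial ion and fluid transport genes moved in both directions, with 4 of 21 higher and 5 lower in WT and a median of 0.07. All 3 subunits of the epithelial sodium channel, through which the airway absorbs sodium and with it water, were lower in WT. Scnn1b, the beta subunit, read 9.81 and 9.77 in the WT pools and 10.51 and 10.59 in the IL4R KO pools, a fall of 0.76 on the log2 scale (SE 0.06, adjusted p = 0.00316). Scnn1g read 10.89 and 10.98 in the WT pools and 11.31 and 11.45 in the IL4R KO pools (difference -0.44, SE 0.07, adjusted p = 0.0331), and Scnn1a 11.68 and 11.66 in the WT pools and 12.15 and 12.05 in the IL4R KO pools (difference -0.43, SE 0.06, adjusted p = 0.0226). For each subunit both WT pools lay below both IL4R KO pools, and the transgenic pools lay between them, at 10.27 and 10.32 for Scnn1b, 11.28 and 11.27 for Scnn1g and 11.90 and 11.94 for Scnn1a. The water channels Aqp4 and Aqp5 fell by 0.98 and 0.41.

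The transport genes that rose carry anions, glucose and bicarbonate. Slc26a4, the anion exchanger pendrin, read 13.24 and 13.26 in the WT pools and 7.49 and 7.47 in the IL4R KO pools, a rise of 5.77 (SE 0.31, adjusted p = 0.000948). Slc5a1, a sodium-driven glucose transporter, read 9.49 and 9.57 in the WT pools and 7.25 and 7.10 in the IL4R KO pools, a rise of 2.36 (SE 0.12, adjusted p = 0.000742). Car2, a carbonic anhydrase, rose by 1.12 and the anion exchanger Slc4a2 by 0.35 (SE 0.07). The list had 2 higher and 1 lower (Scnn1b) without WT pool 1, and 2 higher and 0 lower (Scnn1b -0.74) without WT pool 2. Outside the list but among the 30 largest rises, Fxyd4, a regulator of the sodium pump, read 10.66 and 10.88 in the WT pools and 7.27 and 7.11 in the IL4R KO pools (3.58, SE 0.10, adjusted p = 6e-05), and Slc6a20a, an amino acid transporter, 10.19 and 10.35 in the WT pools and 7.16 and 7.43 in the IL4R KO pools (2.98, SE 0.11, adjusted p = 0.000192). Further membrane genes, chosen after their values were seen, were the potassium channel Kcnj15 (1.21), the organic anion transporter Slco4c1 (1.52) and the nucleotide receptor P2ry2 (0.97). Slc26a4, Slc5a1, Fxyd4, Slc6a20a, Kcnj15, Slco4c1 and P2ry2 all passed with every pool left out in turn.

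**Figure D2:**
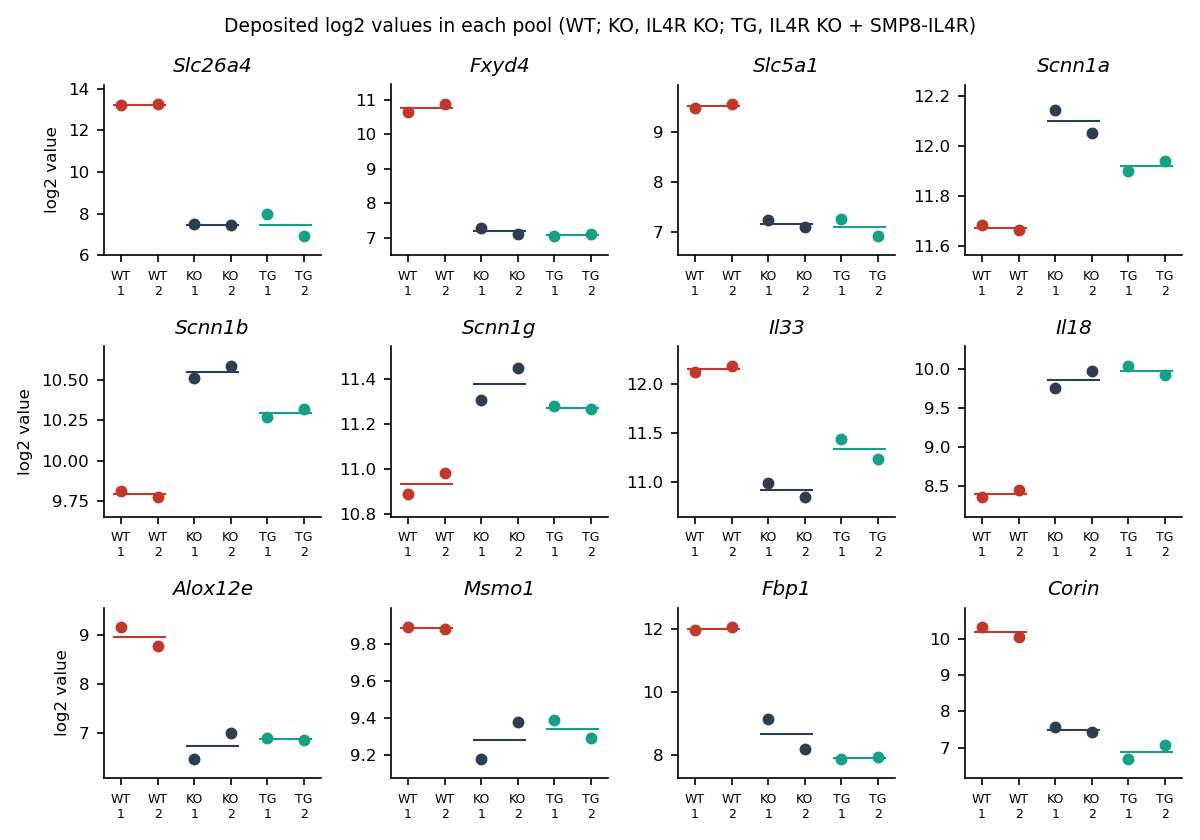
Each point is the log2 value of 1 pool, with a line at the mean of the 2 pools, for 12 genes in the WT, IL4R KO (KO) and IL4R KO + SMP8-IL4R (TG) groups, and each panel has its own vertical range. The WT pools stand above both other groups for Slc26a4, Fxyd4, Slc5a1, Il33, Alox12e, Msmo1, Fbp1 and Corin, and below them for the 3 sodium channel subunits and Il18.

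Of 22 epithelial transcription factors 3 rose and none fell. Spdef, which drives goblet cell differentiation, read 8.10 and 8.06 in the WT pools and 6.88 and 6.90 in the IL4R KO pools (1.19, SE 0.06, adjusted p = 0.000742). Foxa3, a forkhead factor of mucous cells, read 7.56 and 7.80 in the WT pools and 5.87 and 5.24 in the IL4R KO pools (2.12, SE 0.23, adjusted p = 0.00857), and Ehf, an ETS factor of epithelia, rose by 0.64 (SE 0.06, adjusted p = 0.00557). Spdef alone passed without WT pool 1 or 2, while the list had 7 higher and 2 lower with IL4R KO pool 1 left out, and 5 and 0 with IL4R KO pool 2 left out. In the club cell and secretory list, 3 of 19 rose and 5 fell, with a median of -0.11. The mucin Muc5b rose by 2.17, the antimicrobial lectin Reg3g by 1.11 and the secreted protein Bpifb1 by 1.28. Pon1, paraoxonase, read 9.11 and 9.37 in the WT pools and 11.24 and 11.26 in the IL4R KO pools (difference -2.01, SE 0.16, adjusted p = 0.00249), lactoferrin (Ltf) differed by -1.07, Bpifa1 by -0.62 and Scgb3a2 by -0.54. Muc5b, Bpifb1 and Pon1 passed with every pool left out in turn, and Reg3g did not pass without WT pool 1 (1.11) or 2 (1.10). The list had 2 higher and 2 lower without WT pool 1, and 2 and 1 without WT pool 2.

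In the fit on all pools, other epithelial lists held from 0 calls to 2 rises and 2 falls, where 4.7% of all genes tested passed. Of 27 ciliated cell genes 0 passed in limma (1 higher and 2 lower at an unadjusted p under 0.05). That unadjusted level was met by 22.5% of all genes tested in either direction. Of 15 alveolar type 1 genes Aqp5 alone fell. Of 24 genes of basal cells and keratins, Cldn1, a tight junction protein, rose by 1.01 (SE 0.07, adjusted p = 0.00159), although 4 probe sets of the gene ran from -0.02 to 1.01. Of 18 alveolar type 2 genes, 2 rose (Chia1, 3.01, and Il33) and 2 fell (Lpcat1, -0.56, which makes surfactant lipid, and Lyz2, -0.29). Aqp5, Lpcat1 and Lyz2 did not pass without WT pool 1 or 2, at -0.39 and -0.44, -0.54 and -0.57, and -0.28 and -0.30. Ciliated cell genes gave 0 higher and 4 lower with IL4R KO pool 1 left out, and 1 and 0 with IL4R KO pool 2 left out. Basal cell and keratin genes gave 1 higher and 5 lower with IL4R KO pool 1 left out, and 2 and 0 with IL4R KO pool 2 left out. For alveolar type 2 genes the counts were 3 higher and 6 lower with IL4R KO pool 1 left out, and 4 and 2 with IL4R KO pool 2 left out. Alveolar type 1 genes gave 0 higher and 2 lower with IL4R KO pool 1 left out, and 0 and 1 with IL4R KO pool 2 left out.

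Genes of xenobiotic detoxification moved in both directions, with 7 of 38 falling, 4 rising and a median of -0.19. Aldh1a3, which makes retinoic acid, read 8.41 and 7.998 in the WT pools and 5.73 and 5.32 in the IL4R KO pools, a rise of 2.68 (SE 0.18, adjusted p = 0.00159), with its 3 probe sets between 0.53 to 2.68. The cytochrome Cyp1a1 rose by 0.97, the glutathione transferase Gsto1 by 0.94 and the aldehyde dehydrogenase Aldh1a7 by 0.69. Sult1d1, a sulfotransferase, read 8.08 and 8.38 in the WT pools and 9.73 and 9.56 in the IL4R KO pools, a fall of 1.41 on the log2 scale (SE 0.12, adjusted p = 0.00291). Aldh3a1 fell by 0.88, the glutathione transferases Gsta3 and Gstm1 by 0.72 and 0.35, the epoxide hydrolase Ephx1 by 0.54, and Cyp4b1 and Fmo5, oxidases of club cells, by 0.42 and 0.37. Aldh1a3 and Sult1d1 passed with every pool left out in turn. This list was down to 1 higher and 1 lower gene without WT pool 1, and to 2 and 1 without WT pool 2.

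Of 25 antioxidant genes and targets of the stress factor NRF2, 4 rose and none fell. Duoxa1, which matures the hydrogen peroxide source of the airway surface, read 8.55 and 8.75 in the WT pools and 7.25 and 7.30 in the IL4R KO pools (1.37, SE 0.09, adjusted p = 0.00152). Gclc, the rate-limiting enzyme of glutathione synthesis, rose by 0.91 (SE 0.13, adjusted p = 0.0204), glutathione reductase (Gsr) by 0.38 and the peroxiredoxin Prdx4 by 0.38. Duoxa1 alone passed without WT pool 1 or 2, and the list had 4 higher and 1 lower with IL4R KO pool 1 left out, and 4 and 3 with IL4R KO pool 2 left out.

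Cholesterol synthesis genes showed small differences, above 0 for 17 of 20, and the list median was 0.31. Of 20 tested, 5 rose and none fell, and 13 were higher with none lower at an unadjusted p under 0.05, which 22.5% of all genes met in either direction. Msmo1, which removes methyl groups from sterols, read 9.89 and 9.88 in the WT pools and 9.18 and 9.38 in the IL4R KO pools, a rise of 0.61 (SE 0.09, adjusted p = 0.0194). The other probe set of Msmo1 differed by -0.15. Idi1, of isoprenoid synthesis, rose by 0.58, Cyp51 by 0.49, Dhcr7, the last enzyme of the pathway, by 0.48 and Mvd by 0.45. The adjusted p-values of Idi1, Cyp51, Dhcr7 and Mvd lay between 0.0263 and 0.0489. None of the 20 passed without WT pool 1 or WT pool 2, with medians of 0.32 and 0.29, and there were 5 higher and 0 lower with IL4R KO pool 1 left out, and 7 and 1 with IL4R KO pool 2 left out.

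Among 25 genes of fatty acid synthesis and storage, 4 fell and 1 rose, with a median of -0.23. Fabp3, a fatty acid carrier of heart and brown fat, read 9.07 and 9.05 in the WT pools and 9.95 and 9.97 in the IL4R KO pools (difference -0.91, SE 0.06, adjusted p = 0.00119), although its other probe set differed by -0.01. Dgat2, which makes triglyceride, fell by 0.91, the lipid droplet protein Plin4 by 0.73 and hormone-sensitive lipase (Lipe) by 0.67. The carrier Fabp5 rose by 0.46 (SE 0.09, adjusted p = 0.0442). Dgat2, Plin4 and Lipe are also members of the fat list described further on. Leaving out WT pool 1 left 0 higher and 1 lower gene, and leaving out WT pool 2 left 0 and 2. The same list had 0 higher and 11 lower with IL4R KO pool 1 left out, and 2 and 7 with IL4R KO pool 2 left out.

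Eicosanoid genes, whose products are prostaglandins, leukotrienes and related lipid mediators, rose in 6 of 24 cases and fell in 2. Alox12e, an epidermal-type lipoxygenase, read 9.16 and 8.78 in the WT pools and 6.47 and 6.996 in the IL4R KO pools, a rise of 2.24 (SE 0.20, adjusted p = 0.0042). Ptgir, the prostacyclin receptor, read 7.997 and 8.10 in the WT pools and 6.39 and 6.77 in the IL4R KO pools (1.47, SE 0.14, adjusted p = 0.00492). Tbxas1, thromboxane synthase, rose by 0.98, the inducible cyclooxygenase Ptgs2 by 0.96 (SE 0.12, adjusted p = 0.0134), the lipoxygenase Alox15 by 0.93 (SE 0.15, adjusted p = 0.0299), and the phospholipase Pla2g4c by 0.44. The pools of each of these genes did not overlap, as for 51.6% of all genes tested, and passing already leaves little room for an overlap. Hpgd, which breaks down prostaglandins, read 11.88 and 12.01 in the WT pools and 12.48 and 12.44 in the IL4R KO pools (difference -0.51, SE 0.07, adjusted p = 0.0187), and Ptgfr, the receptor for prostaglandin F, fell by 0.50. Alox12e and Tbxas1 alone passed without WT pool 1, and Alox12e alone without WT pool 2. The eicosanoid list had 8 higher and 2 lower with IL4R KO pool 1 left out, and 11 and 2 with IL4R KO pool 2 left out.

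In arginine and polyamine metabolism, 2 of 18 rose. Gatm, which makes the creatine precursor from arginine, read 10.20 and 10.08 in the WT pools and 8.76 and 8.59 in the IL4R KO pools (1.46, SE 0.12, adjusted p = 0.00266), and the arginine transporter Slc7a2 rose by 0.73 (SE 0.10, adjusted p = 0.0172). Arg1, arginase, read 9.78 and 10.07 in the WT pools and 7.95 and 5.53 in the IL4R KO pools. With the IL4R KO pools 2.41 apart, its difference of 3.19 did not pass (SE 0.82, adjusted p = 0.095). The higher IL4R KO value was that of pool 1, where liver transcripts were high, and their part in this split was not tested. The transgenic pools read 6.98 and 5.56 for Arg1. Gatm alone of the 18 passed without WT pool 1 or 2, and there were 3 higher and 0 lower with IL4R KO pool 1 left out, and 3 and 1 with IL4R KO pool 2 left out. Of 19 genes of glycolysis and lactate, the hexokinase Hk3 alone rose (0.90, SE 0.11, adjusted p = 0.0119), and it did not pass without WT pool 1 (0.91) or 2 (0.90). The glycolysis list had 1 higher and 1 lower with IL4R KO pool 1 left out, and 2 and 2 with IL4R KO pool 2 left out. Of 26 genes of mitochondrial respiration 0 passed in limma, with differences of -0.26 for Ndufv1 and 0.16 for Ndufb5. At an unadjusted p under 0.05, met by 22.5% of all genes tested in either direction, 4 were higher and 1 lower. This list had 0 higher and 1 lower with IL4R KO pool 1 left out, and 0 and 0 with IL4R KO pool 2 left out.

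Iron and heme genes moved both ways, with 2 of 19 rising and 2 falling. Steap4, a metal reductase, rose by 0.84 (SE 0.12, adjusted p = 0.0182) and the transferrin receptor Tfrc by 0.49 (SE 0.08, adjusted p = 0.0255). Ltf, lactoferrin, which binds iron in secretions and in neutrophil granules, read 10.93 and 10.67 in the WT pools and 11.999 and 11.72 in the IL4R KO pools (difference -1.07, SE 0.12, adjusted p = 0.0111), and haptoglobin (Hp) fell by 0.38. Ltf alone of the 19 passed without WT pool 1, and none did without WT pool 2 (Ltf -0.94). The iron and heme list had 2 higher and 2 lower with IL4R KO pool 1 left out, and 3 and 1 with IL4R KO pool 2 left out.

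Of 29 lysosomal hydrolases and proton pump subunits, 6 rose and none fell, with a median of 0.16. Cathepsin K (Ctsk), a collagen-degrading protease of osteoclasts and macrophages, read 11.50 and 11.38 in the WT pools and 10.30 and 9.57 in the IL4R KO pools, a rise of 1.51 (SE 0.25, adjusted p = 0.0298). Atp6v0d2, a proton pump subunit of osteoclasts and macrophages, rose by 0.83, cathepsin S (Ctss) by 0.60, the tartrate-resistant phosphatase Acp5 by 0.59, acid lipase (Lipa) by 0.47 and Psap by 0.38. None of the 29 passed without WT pool 1 or 2, and the list had 8 higher and 0 lower with IL4R KO pool 1 left out, and 6 and 1 with IL4R KO pool 2 left out. Ocstamp, a membrane protein of fusing osteoclasts and macrophages and one of the 30 largest rises, read 7.68 and 8.10 in the WT pools and 5.62 and 5.45 in the IL4R KO pools (2.36, SE 0.15, adjusted p = 0.0012). Its relative Dcstamp (1.06, SE 0.08, adjusted p = 0.00215) and Tfec, a transcription factor of the macrophage lineage (1.64, SE 0.11, adjusted p = 0.00167), were chosen after their values were seen. Ocstamp, Dcstamp and Tfec passed with every pool left out in turn.

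Serpins, cystatins and coagulation genes rose in 4 of 23 cases and none fell. Tfpi2, an inhibitor of serine proteases, read 8.87 and 9.09 in the WT pools and 6.97 and 6.99 in the IL4R KO pools (2.001, SE 0.25, adjusted p = 0.0133). Coagulation factor X (F10) read 9.44 and 9.65 in the WT pools and 8.25 and 7.80 in the IL4R KO pools (1.53, SE 0.21, adjusted p = 0.0185), and factor VII (F7), which activates it with tissue factor, 10.54 and 10.55 in the WT pools and 9.46 and 9.30 in the IL4R KO pools (1.16, SE 0.10, adjusted p = 0.00353). Vwf, the platelet-binding protein of endothelium, rose by 0.71 (SE 0.09, adjusted p = 0.0129). Factors VII and X are also made in liver, transcripts of which were high in IL4R KO pool 1 and WT pool 2, and the part of these in both differences was not tested. None of the 23 passed without WT pool 1, and F7 alone did without WT pool 2. Of these 23 genes there were 6 higher and 1 lower with IL4R KO pool 1 left out, and 5 and 1 with IL4R KO pool 2 left out.

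Complement genes showed 3 rises and 2 falls among 18. Properdin (Cfp), which stabilises the alternative pathway, rose by 0.77, the C3a receptor (C3ar1) by 0.73 and the complement brake Cd55 by 0.58. Clusterin (Clu) fell by 0.63 and the C5a receptor (C5ar1) by 0.58. None passed without WT pool 1 or without WT pool 2, and the complement list had 6 higher and 3 lower with IL4R KO pool 1 left out, and 4 and 2 with IL4R KO pool 2 left out. In antigen presentation on MHC class II, Ctss and the thiol reductase Ifi30 (0.47) rose among 12 tested, and neither passed without a WT pool. The MHC class II list had 3 higher and 2 lower with IL4R KO pool 1 left out, and 3 and 0 with IL4R KO pool 2 left out.

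Collagen genes rose in 9 of 25 cases and fell in 2. Col6a2, a chain of the beaded collagen VI of connective tissue, read 13.14 and 13.12 in the WT pools and 11.80 and 11.81 in the IL4R KO pools, a rise of 1.32 (SE 0.06, adjusted p = 0.00048). Col6a1 rose by 0.91 and Col5a2, of collagen V, by 0.82 (SE 0.06, adjusted p = 0.00215). The fibrillar collagen genes Col1a1 (0.65, SE 0.07, adjusted p = 0.00617), Col3a1 (0.63) and Col1a2 (0.36) rose as well, with Col6a3, Col8a1 and Col14a1 between 0.53 and 0.71. Col12a1 fell by 0.72 and Col23a1 by 0.45, and the 4 probe sets of Col12a1 disagreed, from -0.72 to 0.24. Col6a2, Col6a1 and Col5a2 were the 3 that passed without either WT pool.

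Other matrix genes divided evenly, with 3 of 34 in the list of elastic fibre, glycoprotein and crosslinking genes rising and 3 falling. Periostin (Postn), a matrix protein known as an IL-13 target, read 12.54 and 12.57 in the WT pools and 11.74 and 11.70 in the IL4R KO pools (0.83, SE 0.06, adjusted p = 0.00231). Versican (Vcan) rose by 1.13 and fibronectin (Fn1) by 0.65, while Fbln2, decorin (Dcn) and tenascin X (Tnxb) fell by 0.73, 0.62 and 0.50. Postn alone passed without WT pool 1, and Postn and Fbln2 without WT pool 2, while this list had 5 higher and 3 lower with IL4R KO pool 1 left out, and 4 and 5 with IL4R KO pool 2 left out. The probe sets of Vcan ran from -0.10 to 1.15 and those of Dcn from -0.62 to 0.07. Of 24 matrix proteases and inhibitors, 3 rose and 2 fell. Mmp19 rose by 1.16, Adam8 by 1.10 and Adam10 by 0.44. Stromelysin (Mmp3) read 7.55 and 7.55 in the WT pools and 8.47 and 8.40 in the IL4R KO pools (difference -0.89, SE 0.07, adjusted p = 0.00247). It was the only one of the 24 to pass without WT pool 1 or 2, and Htra1 fell by 0.46 in the fit on all pools. The protease list had 5 higher and 3 lower with IL4R KO pool 1 left out, and 4 and 2 with IL4R KO pool 2 left out.

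Lists of growth and morphogen signals each held both rises and falls, where 4.7% of all genes tested passed. Igf1, insulin-like growth factor, read 10.30 and 10.14 in the WT pools and 8.96 and 8.92 in the IL4R KO pools, a rise of 1.27 (SE 0.08, adjusted p = 0.00119), and its 4 probe sets differed by 1.21 to 1.48. Among 31 growth factors and receptors it was the only rise, and the binding proteins Igfbp3 and Igfbp6 fell by 0.98 and 0.48. Igf1 alone passed without WT pool 1 or 2, and the growth factor list had 3 higher and 6 lower with IL4R KO pool 1 left out, and 2 and 4 with IL4R KO pool 2 left out. Of 34 genes of TGF-beta and BMP signalling, 2 rose (Fst, follistatin, 1.57, which binds activin, and Fstl1, 0.34) and 1 fell (Ltbp4, -0.43). Of 36 genes of Wnt, Notch and Hedgehog signalling, the ligand Shh rose by 0.75 (SE 0.10, adjusted p = 0.0175), the Wnt inhibitor Sfrp2 by 0.85, and Axin2, a Wnt target, fell by 0.43. None of the genes in either list passed without WT pool 1 or without WT pool 2. The TGF-beta and BMP list had 2 higher and 5 lower with IL4R KO pool 1 left out, and 1 and 4 with IL4R KO pool 2 left out. Wnt, Notch and Hedgehog genes gave 3 higher and 8 lower with IL4R KO pool 1 left out, and 3 and 2 with IL4R KO pool 2 left out.

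Among 31 smooth muscle genes, 10 rose and 3 fell, with a median of 0.10. Actg2, a smooth muscle actin, read 10.89 and 10.95 in the WT pools and 9.88 and 9.93 in the IL4R KO pools, a rise of 1.02 (SE 0.06, adjusted p = 0.00114). Rgs5, of pericytes, rose by 1.06, and Myocd, the coactivator that drives the smooth muscle programme, by 1.03 (SE 0.10, adjusted p = 0.00595). The contractile genes Myh11 (0.59), Tpm2 (0.52), Myl9 (0.49), Acta2 (0.47) and Tagln (0.43) rose by less. The 3 that fell, Ryr2, Casq2 and Pln, handle calcium in heart muscle and are members of the cardiac list too. In the transgenic pools, which carry the receptor from the smooth muscle promoter, Actg2 read 11.38 and 11.40, above both other groups. Rgs5, Myocd, Actg2 and Synpo2 (1.002) were the 4 rises left without WT pool 1 or 2, when none of the 3 falls passed, and the probe sets of Synpo2 disagreed, from -0.27 to 1.002.

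Among 24 interleukins and their receptors, 2 rose and 1 fell. Il33, the alarmin of alveolar epithelium that acts on innate lymphoid cells, read 12.12 and 12.19 in the WT pools and 10.99 and 10.84 in the IL4R KO pools, a rise of 1.24 (SE 0.09, adjusted p = 0.00231). Il18, an inflammasome cytokine, read 8.36 and 8.44 in the WT pools and 9.75 and 9.97 in the IL4R KO pools, a fall of 1.46 on the log2 scale (SE 0.10, adjusted p = 0.00144). Both WT pools stood apart from all other arrays for both genes, the transgenic pools reading 11.44 and 11.24 for Il33 and 10.04 and 9.92 for Il18. Csf2ra, the GM-CSF receptor chain, rose by 0.54 (SE 0.09, adjusted p = 0.0309) and did not pass without WT pool 1 (0.57) or 2 (0.51). The interleukin list had 2 higher and 2 lower with IL4R KO pool 1 left out, and 3 and 2 with IL4R KO pool 2 left out. Of 27 JAK, STAT and SOCS genes, the feedback inhibitors Cish and Socs1 rose. Cish read 10.30 and 10.27 in the WT pools and 9.58 and 9.18 in the IL4R KO pools (0.90, SE 0.13, adjusted p = 0.0202) and Socs1 7.37 and 7.21 in the WT pools and 6.50 and 6.61 in the IL4R KO pools (0.74, SE 0.08, adjusted p = 0.0089). Neither passed without WT pool 1, and Socs1 alone did without WT pool 2. Of the 27 there were 4 higher and 2 lower with IL4R KO pool 1 left out, and 3 and 1 with IL4R KO pool 2 left out.

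In the NF-kB and TNF family, 3 of 24 rose. Tnfrsf9, the costimulatory receptor 4-1BB, read 9.71 and 9.80 in the WT pools and 7.80 and 7.80 in the IL4R KO pools (1.95, SE 0.12, adjusted p = 0.00106), while its 3 probe sets ran from -0.12 to 3.24. P-selectin (Selp), which slows leukocytes on the vessel wall, rose by 1.10 (SE 0.10, adjusted p = 0.00412) and the B cell survival factor Tnfsf13b by 0.69. Tnfrsf9 alone passed without WT pool 1 or 2, and the list had 5 higher and 3 lower with IL4R KO pool 1 left out, and 4 and 0 with IL4R KO pool 2 left out. Of 25 interferon response genes 0 passed in limma (3 higher and 1 lower at an unadjusted p under 0.05), with 1 higher and 0 lower with IL4R KO pool 1 left out, and 1 and 1 with IL4R KO pool 2 left out. An unadjusted p under 0.05 was met by 22.5% of all genes tested in either direction. The interferon-induced chemokine Cxcl9 read 6.11 and 6.09 in the WT pools and 7.95 and 6.91 in the IL4R KO pools. In the transgenic pools it read 9.50 and 8.34. Its difference of -1.33 did not pass (SE 0.46, adjusted p = 0.168). Of 22 immediate early genes Egr2 alone rose (1.35, SE 0.19, adjusted p = 0.0197), and it did not pass without WT pool 1 (1.27) or 2 (1.43).

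The list of B cells and plasma cells had 18 tested members, of which 6 fell and 2 rose, with a median of -0.56. The antibody heavy chain Ighg3 read 7.67 and 7.90 in the WT pools and 11.06 and 10.01 in the IL4R KO pools, a difference of -2.75 (SE 0.33, adjusted p = 0.0114), and its 4 probe sets ran from -2.75 to -0.09. Jchain, which joins IgA and IgM, read 10.27 and 10.38 in the WT pools and 12.76 and 11.82 in the IL4R KO pools (-1.97, SE 0.31, adjusted p = 0.0274). Both WT pools lay below the other 4 arrays for both genes, and IL4R KO pool 1 lay about 1 log2 unit above pool 2. Igha fell by 1.53, the plasma cell chaperone Mzb1 by 1.40, the B cell coactivator Pou2af1 by 1.12 and Ighm by 1.04, whose 11 probe sets ran from -1.73 to 0.67. The light chain transcripts Igkv9-120 (-2.32), Igkv8-30 (-2.21), Igkv6-14 (-1.74) and Iglv1 (-1.32) were among the 30 largest falls, and related antibody genes can share probes. Of these 4, Igkv6-14 passed with every pool left out in turn, and the others did not pass without WT pool 1 or 2. The 2 members that rose were Pigr (1.86, SE 0.14, adjusted p = 0.00211), which carries IgA across epithelium and is made by epithelial cells, and the transcription factor Irf4 (0.94), which did not pass without WT pool 2 (0.88). Ighm alone of the 18 fell without WT pool 1 or 2, while 15 fell without IL4R KO pool 1. The list median itself turned on these pools, reaching -1.05 when IL4R KO pool 1 was left out and -0.23 when IL4R KO pool 2 was.

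Of 14 T cell genes, Cd6 (-0.50, SE 0.07, adjusted p = 0.0213) and Icos (-0.39, SE 0.06, adjusted p = 0.0213) fell, and the median was -0.39. This count turned on the pools, with 0 falling without WT pool 1, 0 without WT pool 2 and 12 without IL4R KO pool 1, and the median was -0.15 without IL4R KO pool 2. Of 9 genes of cytotoxic and NK cells 0 passed in limma, also at an unadjusted p under 0.05, but 8 fell without IL4R KO pool 1 and 4 rose without IL4R KO pool 2. Klrd1, a receptor of NK cells, read 6.95 and 6.78 in the WT pools and 6.94 and 7.92 in the IL4R KO pools, so that its IL4R KO pools lay further apart than the group means (difference -0.56). Of 17 neutrophil genes, Ltf fell and Chil1 rose (0.84, SE 0.16, adjusted p = 0.0491). Chil1 did not pass with any of the 4 pools left out, and Ltf did not without WT pool 2 (-0.94), while 2 of the 17 fell without IL4R KO pool 2. Of 6 genes of eosinophils, mast cells and basophils, Alox15 alone rose, and of 4 genes of red cells Tfrc rose and Fech fell (-0.36). None of these 3 passed without WT pool 1 or 2, and 2 red cell genes fell without IL4R KO pool 1.

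The 30 largest falls held many transcripts of fat. Of 16 tested genes of adipocytes and brown fat, 12 were lower in WT and none higher, with a median of -1.24. Adiponectin (Adipoq), a hormone made by fat cells, read 8.08 and 8.39 in the WT pools and 10.06 and 10.26 in the IL4R KO pools, a fall of 1.93 on the log2 scale (SE 0.12, adjusted p = 0.00128). Ucp1, the uncoupling protein that makes heat in brown fat, read 6.30 and 6.59 in the WT pools and 8.01 and 8.27 in the IL4R KO pools, a fall of 1.70 (SE 0.16, adjusted p = 0.00557). Fabp4, the fat cell carrier, fell by 1.52, the lipid droplet protein Cidec by 1.48 (SE 0.08, adjusted p = 0.000991) and the brown fat respiratory subunit Cox8b by 1.06. Thrsp, a regulator of lipid synthesis, fell by 1.55, Tmem45b by 1.53, carbonic anhydrase 3 (Car3) by 1.42 and resistin (Retn) by 0.97. Of the 16, 6 fell without WT pool 1 and 8 without WT pool 2, and 1 rose without IL4R KO pool 2. Adipoq, Tmem45b, Fabp4, Cidec and Cox8b passed with every pool left out in turn.

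Heart muscle transcripts were lower in WT as well, in 18 of 25 cases with none higher and a median of -0.72. Troponin I of heart (Tnni3) read 9.80 and 9.68 in the WT pools and 10.90 and 10.64 in the IL4R KO pools, a fall of 1.03 on the log2 scale (SE 0.10, adjusted p = 0.00595). Myl4 and Myl7, myosin light chains of the atrium, fell by 0.99 and 0.88 (SE 0.07, adjusted p = 0.00292), myoglobin (Mb) by 0.97, and the muscle proteins Ckmt2 and Tcap by 0.92 and 0.92. For each of these genes the IL4R KO pools lay above the WT pools, and the transgenic pools between them. Of the 25, only 2 fell without WT pool 1 and only 2 without WT pool 2 (Myl7 and Smpx each time), against 17 without IL4R KO pool 1 and 21 without the other. Of 7 skeletal muscle genes 3 fell, namely Myl1 (-0.94), Ckm (-0.88) and Eno3 (-0.61). None of these passed without WT pool 1, and Myl1 alone did without WT pool 2.

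Relative to the IL4R KO mean, the 12 fat genes had medians of -1.51 and -1.20 in the WT pools and -0.97 and -0.86 in the transgenic pools. The 18 heart genes had medians of -0.78 and -0.87 in the WT pools and -0.50 and -0.39 in the transgenic pools. The IL4R KO pools stood at -0.05 and 0.05 for fat and at 0.10 and -0.10 for heart. These genes were chosen as passing lower in WT, which fixes the order of the WT and IL4R KO means. The choice also favours genes reading high in the IL4R KO pools, which bears on the transgenic pools too. Over all tested fat genes, median deviations from the mean of the 4 arrays were -0.69 and -0.37 (WT) and 0.48 and 0.61 (IL4R KO). For all tested heart genes they were -0.30 and -0.44 (WT) and 0.475 and 0.27 (IL4R KO). Fat and heart muscle can enter a lung sample with adjoining tissue or the muscle sleeve of the pulmonary veins, and the part of tissue makeup in these differences was not tested.

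**Figure D3:**
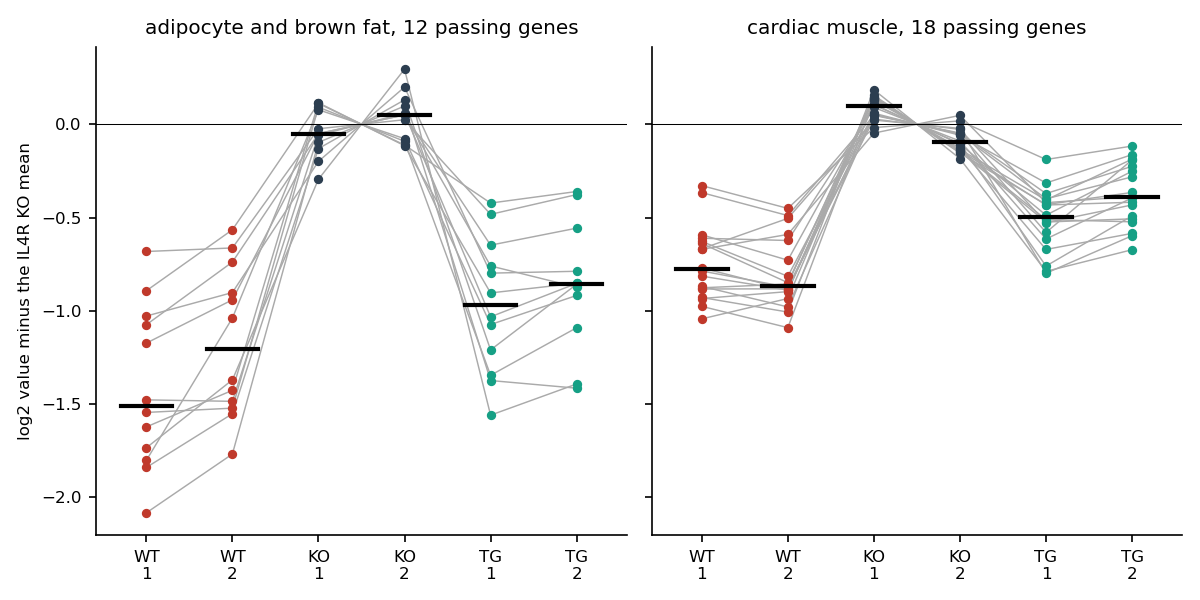
Each grey line joins the values of 1 passing gene over the 6 pools, as log2 value minus the IL4R KO mean of that gene, for 12 fat genes (left) and 18 heart muscle genes (right), with the pool median as a black bar. The bars of the WT pools lie at -1.51 and -1.20 for fat and at -0.78 and -0.87 for heart. Those of the transgenic pools (TG) lie between WT and IL4R KO (KO). The genes were chosen as passing lower in WT, which fixes the order of the WT and IL4R KO means.

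Lists of other structural cells had medians nearer 0, at -0.27 for mesothelium and -0.12 for endothelium. Of 14 mesothelial genes, which mark the lining of the pleura, 4 fell, among them Upk3b (10.67 and 10.67 in the WT pools and 11.29 and 11.53 in the IL4R KO pools, difference -0.74, SE 0.11, adjusted p = 0.0204) and mesothelin (Msln, -0.44). None passed without WT pool 1 or 2. Of 35 endothelial genes 3 fell and Vwf rose. Esm1, a secreted protein of activated endothelial tip cells, read 6.52 and 6.80 in the WT pools and 8.39 and 8.90 in the IL4R KO pools (difference -1.99, SE 0.20, adjusted p = 0.00682), Angptl4, an inhibitor of lipoprotein lipase, fell by 1.06 and the scavenging receptor Ackr3 by 0.55. None of the 35 passed without WT pool 1 (Esm1 -1.85), and Esm1 alone did without WT pool 2. The endothelial list had 2 higher and 9 lower with IL4R KO pool 1 left out, and 2 and 4 with IL4R KO pool 2 left out.

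The other large falls were of mixed function. Scara5, a ferritin receptor of fibroblasts, differed by -1.49 (SE 0.12, adjusted p = 0.00294), although its other probe set differed by 0.44. Fcgr1, the high-affinity receptor for IgG, differed by -1.17 (SE 0.11, adjusted p = 0.0051), and its other probe set by -0.05. Acot1, an acyl-CoA thioesterase, fell by 1.19, the carboxylesterase Ces1g by 1.08, Olfm2 by 1.06 and Parvg, an adaptor of leukocyte adhesion, by 1.05. The keratin-associated Krtap17-1 had a difference of -1.73. Of these Scara5 passed with every pool left out in turn.

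Several lists of general cell function gave 0 calls in limma, and so did 4 neural and neuroendocrine genes, of which 0 passed at an unadjusted p under 0.05 either. For 28 cell cycle and mitosis genes the median was 0.34, and 27 had a difference above 0. At an unadjusted p under 0.05, which 22.5% of all genes tested met in either direction, 16 were higher and 0 lower. Ccne1 stood at 0.30 (SE 0.07, adjusted p = 0.0818) and Aurka at 0.57 (SE 0.15, adjusted p = 0.0931). With the pool number as a replicate block, 6 of the 28 were higher and 0 lower. Outside the list, the cell cycle genes Espl1 (0.65, adjusted p = 0.00849) and Chek1 (0.60, adjusted p = 0.023) passed, chosen after their values were seen. Cell cycle genes outside the list were not counted in either direction. These 28 genes had 7 higher and 0 lower with IL4R KO pool 1 left out, and 0 and 1 with IL4R KO pool 2 left out. For 17 ribosomal protein genes the median was -0.04 and 0 passed at an unadjusted p under 0.05. For 24 proteasome and heat shock genes it was 0.02 with 0 higher and 2 lower at that level, and for 15 circadian clock genes -0.03 with 1 higher and 1 lower. The proteasome and heat shock list had 4 higher and 0 lower with IL4R KO pool 1 left out, and 0 and 2 with IL4R KO pool 2 left out. The clock list had 2 higher and 1 lower with IL4R KO pool 1 left out, and 0 and 5 with IL4R KO pool 2 left out. Immediate early genes gave 2 higher and 0 lower with IL4R KO pool 1 left out, and 1 and 8 with IL4R KO pool 2 left out.

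Genes split between the pools of a group were looked for at a difference of over 4-fold, a log2 difference of 2. The IL4R KO pools were split for 42 genes (0.354% of those tested), 40 of them higher in pool 1, and the WT pools for 25 (0.211%), all higher in pool 2. Of these, 23 genes were split in both groups, every one high in IL4R KO pool 1 and WT pool 2, and 17 of the 23 belong to the hepatocyte list. None of the 44 genes split in either group passed between genotypes, but so large a split widens the SE and leaves little room to pass.

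The transcripts high in those 2 arrays were products of liver. Cyp3a11, a drug-metabolising cytochrome of liver, read 4.10 and 11.21 in the WT pools and 11.50 and 3.96 in the IL4R KO pools. Serpina1c, an alpha-1-antitrypsin gene, read 6.12 and 12.18 in the WT pools and 12.46 and 6.38 in the IL4R KO pools, and Fga, the fibrinogen alpha chain, 4.01 and 9.38 in the WT pools and 10.23 and 4.61 in the IL4R KO pools. For all 3 genes the pools of a group stood at least 5.37 log2 units apart, while the group means differed by -0.07, -0.27 and -0.72. Alb, Cyp2c29, Cyp3a25, Bhmt, Mug1, Apoh and Apoa2 completed the 10 with the largest splits, and their values in the transgenic pools lay between 3.40 and 6.11. Of 32 tested hepatocyte genes 0 passed in limma, nor did any at an unadjusted p under 0.05, and 1 rose without IL4R KO pool 1. The list median was -0.25. Leaving out a WT pool moved it to 0.97 (pool 1) or -1.69 (pool 2), and leaving out an IL4R KO pool to 1.18 (pool 1) or -1.93 (pool 2). The 2 genes split in WT alone, Fabp1 and Pck1, are also made in liver. Fabp1 read 5.63 and 8.88 in the WT pools and 9.73 and 7.89 in the IL4R KO pools. Pck1 read 5.49 and 7.56 in the WT pools and 9.53 and 7.76 in the IL4R KO pools. The transgenic pools read 7.32 and 7.59 for Fabp1 and 6.80 and 7.03 for Pck1, above WT pool 1. Pck1 is a member of the fat list too, where its difference of -2.125 was the lowest and did not pass (SE 0.80, adjusted p = 0.199).

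Of the 19 genes split in the IL4R KO pools alone, 4 are sex-linked. The Y-linked genes Eif2s3y, Kdm5d and Uty read 9.18 and 4.27, 8.04 and 3.34 and 7.69 and 3.57 in the IL4R KO pools, and 8.71 and 8.64, 7.59 and 7.68 and 7.60 and 7.61 in the WT pools. Xist, the RNA that silences an X chromosome in female cells, read 7.93 and 11.40 in the IL4R KO pools and 10.49 and 10.08 in the WT pools. IL4R KO pool 2 was thus the low array for the Y-linked genes and the high one for Xist, and IL4R KO pool 1 the low one for Xist. Another 4 of the 19 (Tdo2, Tat, Hamp and Ahsg) belong to the hepatocyte list, and Cyp2c50, Cyp2c70 and Rgn, noted after their values were seen, are also liver products. For these 7 except Tdo2, WT pool 2 also read above WT pool 1, by 1.52 to 1.80. Further splits included the antibody gene Igkv15-103 (6.67 and 6.60 in the WT pools and 11.59 and 8.02 in the IL4R KO pools), the heat shock genes Hspa1a (11.08 and 10.67 in the WT pools and 12.21 and 8.93 in the IL4R KO pools) and Hspa1b (12.61 and 12.19 in the WT pools and 13.27 and 10.22 in the IL4R KO pools). Tdo2, an enzyme of tryptophan breakdown, read 8.57 and 9.18 in the WT pools and 8.51 and 5.21 in the IL4R KO pools, low in IL4R KO pool 2 and in neither WT pool.

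Across all genes, the difference between pools had an SD of 0.34 in IL4R KO, 0.22 in WT and 0.17 in the transgenic group. With a hepatocyte score as a covariate 303 genes were higher and 228 lower, and with both arrays holding liver transcripts left out, 242 and 287. With a score of the Y-linked genes as a covariate, 607 were higher and 528 lower. Of the 557 genes that passed in the fit on all pools, none passed in the opposite direction with either covariate. The genes were chosen for their direction in the same arrays, which largely fixed this.

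**Figure D4:**
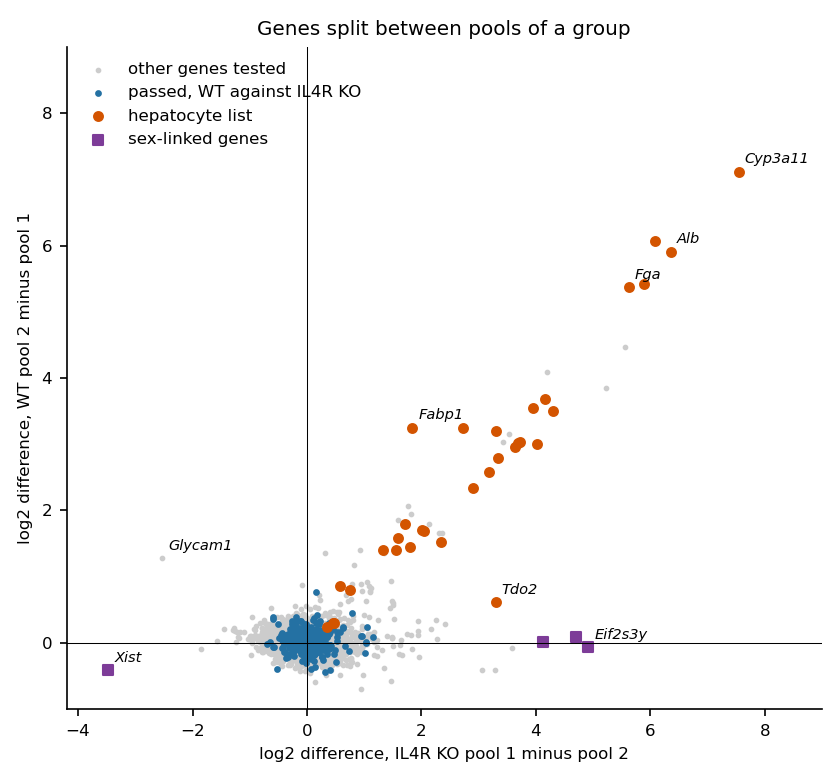
Each point is 1 of 11860 genes, placed by the log2 difference between the IL4R KO pools (pool 1 minus pool 2, horizontal axis) and between the WT pools (pool 2 minus pool 1, vertical axis), with hepatocyte genes in orange, sex-linked genes as purple squares and genes passing between genotypes in blue. Hepatocyte genes rise along the diagonal to Cyp3a11 at 7.54 and 7.12, and Eif2s3y and Xist lie along the horizontal axis. No blue point lies beyond 2 on either axis, where a split widens the SE and leaves little room to pass.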

How the data were processed

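Whole lung RNA of 6 pools, each from 4 mice, was measured on Affymetrix mouse 430 2.0 arrays. The authors deposited log2 values from RMA, per the submitters' processing notes; RMA (robust multi-array average) corrects background, quantile-normalizes and summarises probes, and its version is not given in the sources used here. RMA compresses dim signals, so folds of dim genes are uncertain, and the number of arrays limits the precision. Of 45101 probe sets, 64 controls were left out, 34945 had 1 gene in the platform annotation, 932 several and 9160 none named here. A gene was read by its brightest probe set, and the 11860 genes for which 2 or more arrays exceeded 7.10, the median of the whole table, were tested.

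The fit used limma 3.58.1 (R 4.3.3) with a mean for each of 3 groups over all 6 arrays and Benjamini-Hochberg adjustment over all genes; passing means an adjusted p under 0.05. All adjusted p-values are from this fit. The fit was tested on simulated data. Differences are WT minus IL4R KO. The 53 gene lists held 1438 genes, of which 1316 had a named probe set. The members, lists and rules were chosen with earlier results of these data known, so no list is independent evidence. Named genes were the 30 largest rises and falls with pools that did not overlap, up to 5 passing members of a list by size of difference, or the 2 with the lowest p where none passed, and the largest splits between pools; further passing members of a list were named after their values were seen, and genes outside the lists are marked where they appear. Pool numbers were not used to pair the samples in the main fit. Same-numbered pools of WT and IL4R KO deviated with r = -0.509 over all genes tested. These include the liver genes split in opposite pools, so the value cannot tell whether pool numbers mark a shared batch. Figures were drawn with matplotlib 3.10.9.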

Additional observations from a re-analysis of the deposited data

How the results depend on the processing

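The number of passing genes moved with several settings. Against 557 passing genes (329 higher, 228 lower, 149 by over 2-fold), the 4 WT and IL4R KO arrays alone gave 300 (200 and 100), and a robust fit with an intensity trend gave 352 lower. A Y-linked covariate gave 1135 (607 and 528), a stricter filter 93 by over 2-fold, and every probe set tested on its own 250 by over 2-fold. Leaving out 1 pool at a time gave 110 to 1512 passing genes, 88 to 663 higher, 22 to 949 lower and 92 to 192 by over 2-fold. With the pool number as a replicate block 291 were higher and 191 lower, and with crossed pool numbers, chosen after seeing the data, 325 and 224. No filter on dim genes gave 315 and 195, and the median of a gene's probe sets 275 and 186. In the fits that kept every pool of WT and IL4R KO, none of the 557 passed in the opposite direction. Their choice by direction in the same arrays largely fixed this. With the median of probe sets, the difference changed sign for 2 of the passing genes with a value, Synpo2 (-0.13) and Sulf2 (-0.048, named after its value was seen), and, of the named genes that did not pass, for Rps3 (0.067) and Sox10 (-0.086). Without IL4R KO pool 2 it did so for Ctsw (0.056), Kdm5d (-0.405) and Uty (-0.087), against -0.482, 4.299 and 4.042 without IL4R KO pool 1, and with the Y-linked covariate for Ctsw (0.013) and Kdm5d (-0.054). The causes were not tested, and the fits that leave out pools also rest on fewer arrays. Values below 5.30, the lower quartile, give no reliable fold.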
